A study of Mus musculus with 33 samples.

Results

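Liver RNA was compared between mice without and with hepatic glucose-6-phosphatase while ChREBP was knocked down in both. The comparison takes, by their labels, the 9 libraries of G6pc-deficient livers with an shRNA against ChREBP (shChREBP/L-G6pc-/-, s25 to s33) and the 8 libraries of G6pc-proficient livers with the same shRNA (shChREBP/L-G6pc+/+, s9 to s16), 17 of the 33 libraries of the series, over all genes with enough counts. The other 16 libraries, 8 of shSCR/L-G6pc-/- and 8 of shSCR/L-G6pc+/+, carried a scrambled shRNA and are used for the same genotype contrast without knockdown. The study is a mouse model of Glycogen Storage Disease type Ia, and the comparison asks which parts of the hepatic response to G6pc loss were present while ChREBP was lowered.

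All mice were male and on a C57BL/6J background. The labels give an age of 13 to 18 weeks, which in the study's methods is the age when the shRNA virus was given and not when the liver was taken. All 4 groups carried floxed G6pc alleles, were infected with an adeno-associated virus that expressed an shRNA, and were given tamoxifen. Only the L-G6pc-/- mice carried the tamoxifen-inducible Cre that the Alb locus drives in hepatocytes, so the deletion is a hepatocyte one and the control mice had both the virus and the drug. The livers belong to the early cohort of the study, taken days after the last tamoxifen dose from mice that were not fasted. The labels do not say that each library came from its own mouse, so n counts libraries and p-values set a difference against the spread between libraries.

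G6pc encodes the catalytic subunit of glucose-6-phosphatase, which releases free glucose from glucose-6-phosphate at the end of glycogen breakdown and gluconeogenesis. In hepatocytes that lack it, glucose-6-phosphate builds up and glycogen and lipid are stored. ChREBP, encoded by Mlxipl, is a transcription factor that is activated by glucose metabolites and binds carbohydrate response elements in genes of glycolysis, fructose metabolism and lipid synthesis.

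Values are CPM, read counts scaled to a common library total and by TMM (a factor per library that corrects for its most abundant genes), from 3' QuantSeq libraries, in which a transcript gives reads near its 3' end only. Total counts were 1497843 to 2778910 (median 2422644) in shChREBP/L-G6pc-/- and 1824809 to 2497087 (median 1952654) in shChREBP/L-G6pc+/+ libraries. A gene was called when the quasi-likelihood test of edgeR, adjusted by Benjamini-Hochberg over the 10179 genes tested, gave a p under 0.05. Fold changes are on the log2 scale with their standard error (SE), L-G6pc-/- over L-G6pc+/+, and gene values are the lowest, the median and the highest library of a group. Unless shSCR is named, both genotypes are those with shChREBP. These are bulk livers, so fewer cells of a type and less RNA per cell cannot be told apart.

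On the first principal component, which held 21.3% of the variance, the L-G6pc-/- libraries lay between 4.27 and 33.65 and the L-G6pc+/+ libraries between -29.73 and -4.64, without overlap. Within L-G6pc-/-, s29, s30 and s32 lay at 25.55 to 33.65 and the other 6 libraries at 17.54 or less. An earlier analysis of these data had set s29, s30, s32 and s33 apart. The set was thus chosen from the same data, and on this component s33 lay at 6.62, away from s29, s30 and s32. Counts and fold changes are also given without these 4 libraries where leaving them out ends a call or moves a value by much. Of the 136 called genes named here, 45 were then not called, in a comparison with fewer samples. Of the L-G6pc+/+ libraries, s9 lay apart on the second component (-43.15). The gene Gm42418, the most abundant in every library, held 15.67% of the counts of s9. In the other L-G6pc+/+ libraries it held 6.25% to 9.46%. Mitochondrial genes held 7.945% of the counts of s9, the highest share of this group.

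The shRNA was directed at a site in the coding sequence of Mlxipl that all 5 transcripts holding it place in exon 8 (GRCm38, chr5:135128544-135128564, plus strand, GENCODE M21). The hairpin of the study matched 21 bases there. It is shown because knockdown by this hairpin is what both groups share.
Mlxipl site: ACCCACATCTTCAAACTACAT

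Mlxipl did not pass the test between the genotypes under this shRNA. It was at 216, 441 and 500.4 CPM (lowest, median, highest) in L-G6pc-/- and at 292, 395 and 413 CPM in L-G6pc+/+ libraries. The L-G6pc-/- libraries held both the highest and the lowest values, with s29, s30 and s32 below all L-G6pc+/+ libraries. The difference in mean log2 CPM was 0.0268 (two-sided exact permutation test, p = 0.88 before and after adjustment over the 4 genes so tested). Without s29, s30, s32 and s33 Mlxipl was 0.38 higher in L-G6pc-/- (exact test, adjusted p = 0.00311). These 4 held the lowest Mlxipl values of their group, at 216 to 359 CPM against 441 CPM or more in its other libraries. Leaving them out raises the group's mean by itself, so this p-value cannot decide whether Mlxipl differed between the genotypes. With shSCR, it was at 514 to 633 CPM in L-G6pc-/- and at 449 to 612 CPM in L-G6pc+/+ libraries, above all shChREBP libraries of the same genotype.

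G6pc itself was at 117, 218 and 470.5 CPM in L-G6pc-/- and at 69.1, 162 and 201 CPM in L-G6pc+/+ libraries, and the groups overlapped. The difference in mean log2 CPM was 0.512 (exact test, p = 0.103; 0.137 adjusted over 4 genes). Reads near the 3' end count a transcript whether or not its floxed part is present, and where these reads lie was not tested, so the values are no check of the deletion.

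Under shChREBP, 1124 of the 10179 genes (11%) differed between the genotypes, 625 higher (6.14%) and 499 lower (4.9%) in L-G6pc-/- livers. These shares are the ones to set beside the counts of each gene list below. The higher genes were 55.6% of the calls, and 73.98% when libraries were scaled by their total only. Of the 1124, 156 were more than 2-fold higher and 72 more than 2-fold lower. The same contrast with shSCR called 329 genes (3.23%), 224 of them higher (2.2%) and 105 lower (1.03%). The 2 contrasts share no library. With shChREBP but without s29, s30, s32 and s33, 913 of 10399 genes were called (8.78%), 551 higher (5.3%) and 362 lower (3.48%), and 609 of them were among the 1124. Both contrasts had 158 genes called in the same direction, 109 higher and 49 lower, which is 14.06% of the calls under shChREBP and 48.02% of those under shSCR. Of the 1124 genes, 906 (80.6%) had the same sign of change under shSCR, against 60.57% of all genes tested. Their median absolute log2 fold change was 0.59 under shChREBP and 0.22 under shSCR, for genes that were chosen by their call under shChREBP.

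**Figure D1:**
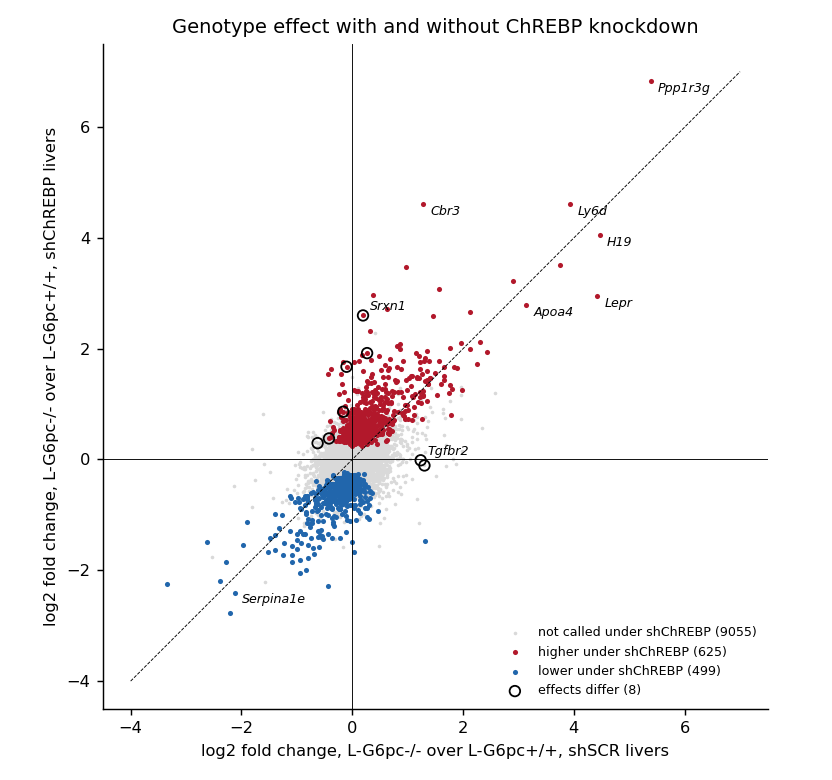
Log2 fold change of 10179 genes, L-G6pc-/- over L-G6pc+/+, in shChREBP livers (vertical) against shSCR livers (horizontal), with genes called under shChREBP in red (higher, 625) or blue (lower, 499) and the 8 genes whose effects differed circled. Ppp1r3g, Ly6d, H19, Lepr and Apoa4 lie far up in both contrasts, and Srxn1 (2.60 with shChREBP, 0.19 with shSCR) stands high on the vertical axis alone.

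Pklr, Gpi1, Tkfc and Khk, genes of glucose and fructose use, were higher in L-G6pc-/- livers while ChREBP was knocked down in both genotypes. Pklr, the liver pyruvate kinase gene and a ChREBP target (GRCm38, chromosome 3), was at 128, 204 and 270 CPM in L-G6pc-/- and at 54.9, 62.9 and 100.3 CPM in L-G6pc+/+ libraries. All 9 L-G6pc-/- libraries exceeded the highest L-G6pc+/+ library. Its log2 fold change was 1.60 (SE 0.17, edgeR adjusted p = 3.62e-08), and the exact test on mean log2 CPM gave p = 8.23e-05, the smallest these groups allow (0.000329 adjusted). With shSCR the fold change was 1.35, and the difference between both effects did not pass its test (edgeR adjusted p = 0.71).

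The promoter of Pklr is shown because it carries a carbohydrate response element, the sequence that ChREBP binds, and Pklr is the classic gene read as its target. The window runs from 250 bases before to 50 bases after a RefSeq start of the gene (GRCm38.p6, chr3:89136373-89136672, plus strand), with a match to the letters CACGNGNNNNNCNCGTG in capitals, 170 bases before the start.
Pklr promoter: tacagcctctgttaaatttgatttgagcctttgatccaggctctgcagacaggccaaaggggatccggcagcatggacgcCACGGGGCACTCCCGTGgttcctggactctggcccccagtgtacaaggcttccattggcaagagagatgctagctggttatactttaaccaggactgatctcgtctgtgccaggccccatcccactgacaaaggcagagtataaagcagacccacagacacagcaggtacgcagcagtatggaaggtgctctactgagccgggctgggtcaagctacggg

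These letters, which read the same on both strands, occurred in 15 of 32851 RefSeq promoter windows of this length (0.0457%) and in the windows of 5 of the 7870 tested genes that have one (0.0635%). The 5 genes were Pklr, Fam124a, Irak1bp1, Crybg3 and A430005L14Rik, of which the first 3 were called higher and the others were not called. Over all genes tested 6.14% were called higher, and 5 genes are too few to compare with that share. Except for Pklr, a target known beforehand, these genes were looked at for this match and not chosen by level. A match is a description of the letters and not a measured binding site. The matches of Fam124a (chr14:62555609-62555705, plus strand) and Irak1bp1 (chr9:82829744-82829840, plus strand) are shown with 40 bases on each side, since both genes were called in the same direction with either shRNA.
Fam124a promoter: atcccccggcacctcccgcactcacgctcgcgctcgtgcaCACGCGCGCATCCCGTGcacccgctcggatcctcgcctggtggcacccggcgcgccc
Irak1bp1 promoter: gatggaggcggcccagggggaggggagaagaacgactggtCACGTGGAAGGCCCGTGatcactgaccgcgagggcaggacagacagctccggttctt

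Fam124a was at 9.56, 11.7 and 14.1 CPM in L-G6pc-/- and at 3.07, 7.1 and 10.3 CPM in L-G6pc+/+ libraries, and 8 of 9 L-G6pc-/- libraries lay above all L-G6pc+/+ libraries. Its log2 fold change was 0.73 with shChREBP (edgeR adjusted p = 0.00333) and 1.27 with shSCR (edgeR adjusted p = 3.26e-06). Irak1bp1 was low, at 0.855, 3.91 and 6.26 CPM in L-G6pc-/- and 0.512, 2.11 and 2.9 CPM in L-G6pc+/+ libraries. Its highest L-G6pc+/+ library lay below 8 of the 9 L-G6pc-/- libraries, and its log2 fold change was 1.12 with shChREBP (edgeR adjusted p = 0.0235) and 1.23 with shSCR (edgeR adjusted p = 0.0297).

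Of 33 tested genes of glycolysis and fructose metabolism, 7 rose and 1 fell in L-G6pc-/- livers, with a median log2 fold change of 0.24 against -0.01 over all genes. With shSCR 9 of the 33 were higher and 1 lower (median 0.24). Gpi1, which interconverts glucose-6-phosphate and fructose-6-phosphate, was at 98, 132 and 161 CPM in L-G6pc-/- and at 47.9, 54.9 and 61.3 CPM in L-G6pc+/+ libraries (log2 fold change 1.27, edgeR adjusted p = 5.52e-09). The groups did not overlap. Tkfc, the triokinase of the fructose pathway, rose by 1.49, also without overlap, and Khk, the ketohexokinase that starts it, by 0.71 (edgeR adjusted p = 7.04e-08 and 6.23e-05).

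The pentose phosphate pathway had 4 of 10 tested genes higher and none lower. Pgd, 6-phosphogluconate dehydrogenase, was at 128, 156 and 315.5 CPM in L-G6pc-/- and at 52.7, 64.7 and 90.1 CPM in L-G6pc+/+ libraries, without overlap (log2 fold change 1.51, SE 0.17, edgeR adjusted p = 1.72e-07). The transketolase gene Tkt rose by 0.73, Rpia by 1.13 and Taldo1 by 0.24 (edgeR adjusted p = 0.000826, 0.00778 and 0.0473). Taldo1 did not pass without the 4 libraries set apart (edgeR adjusted p = 0.139).

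De novo lipogenesis had 7 of 26 tested genes higher and none lower (median log2 fold change 0.26). Acaca, acetyl-CoA carboxylase, was at 35, 52.8 and 75.4 CPM in L-G6pc-/- and at 13.3, 22.8 and 34.8 CPM in L-G6pc+/+ libraries, a log2 fold change of 1.17 (SE 0.20, edgeR adjusted p = 0.000171). Me1, malic enzyme, rose by 1.18. The highest L-G6pc+/+ library of both genes lay below the lowest L-G6pc-/- library. Elovl6, a fatty acid elongase, rose by 1.72, Acly, which makes acetyl-CoA from citrate, by 1.2 and the elongase Elovl5 by 1.15, with some overlap of the groups. The count was 9 higher and none lower without s29, s30, s32 and s33. With shSCR 6 of the 26 were higher and none lower (median 0.42).

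Ppp1r3g, a glycogen-targeting subunit of protein phosphatase 1, had the largest rise among genes with at least 5 CPM on average. It was at 0.428, 48.2 and 357 CPM in L-G6pc-/- and at 0, 0.58 and 1.89 CPM in L-G6pc+/+ libraries. The L-G6pc-/- libraries ran from 0.428 CPM in s33 through 3.7 and 4.6 CPM in s28 and s25 to 357 CPM in s31, and 8 of 9 exceeded all L-G6pc+/+ libraries (log2 fold change 6.83, SE 1.14, edgeR adjusted p = 0.000104). Of 20 glycogen genes, 5 rose and none fell, with Gbe1, the branching enzyme, Gys2, the liver glycogen synthase, Ugp2 and Pygl, the liver phosphorylase, rising by 0.78, 0.80, 0.55 and 0.33. The list's median was -0.01. Gbe1 was 0.39 higher without the 4 libraries set apart, and Ugp2 did not pass (edgeR adjusted p = 0.18).

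Of 20 genes of the glucose-6-phosphatase system and gluconeogenesis, 5 rose and 2 fell. Fbp1, fructose-1,6-bisphosphatase, was at 429, 511 and 613.5 CPM in L-G6pc-/- and at 213, 309 and 397 CPM in L-G6pc+/+ libraries, without overlap (log2 fold change 0.73, SE 0.10, edgeR adjusted p = 6.85e-06). The kinase gene Sik1 rose by 1.55, Ppargc1a, which encodes the coactivator PGC-1α, by 1.22, and Got1 and Mdh2 of the malate-aspartate shuttle by 1.21 and 0.46. The 2 that fell were Crtc2, a CREB coactivator (-1.68), and Gpt, alanine aminotransferase (-0.39) (edgeR adjusted p = 0.0436 and 0.0446), and neither was called without s29, s30, s32 and s33. The list then had 7 higher genes and none lower, and Mdh2 did not pass (edgeR adjusted p = 0.144).

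**Figure D2:**
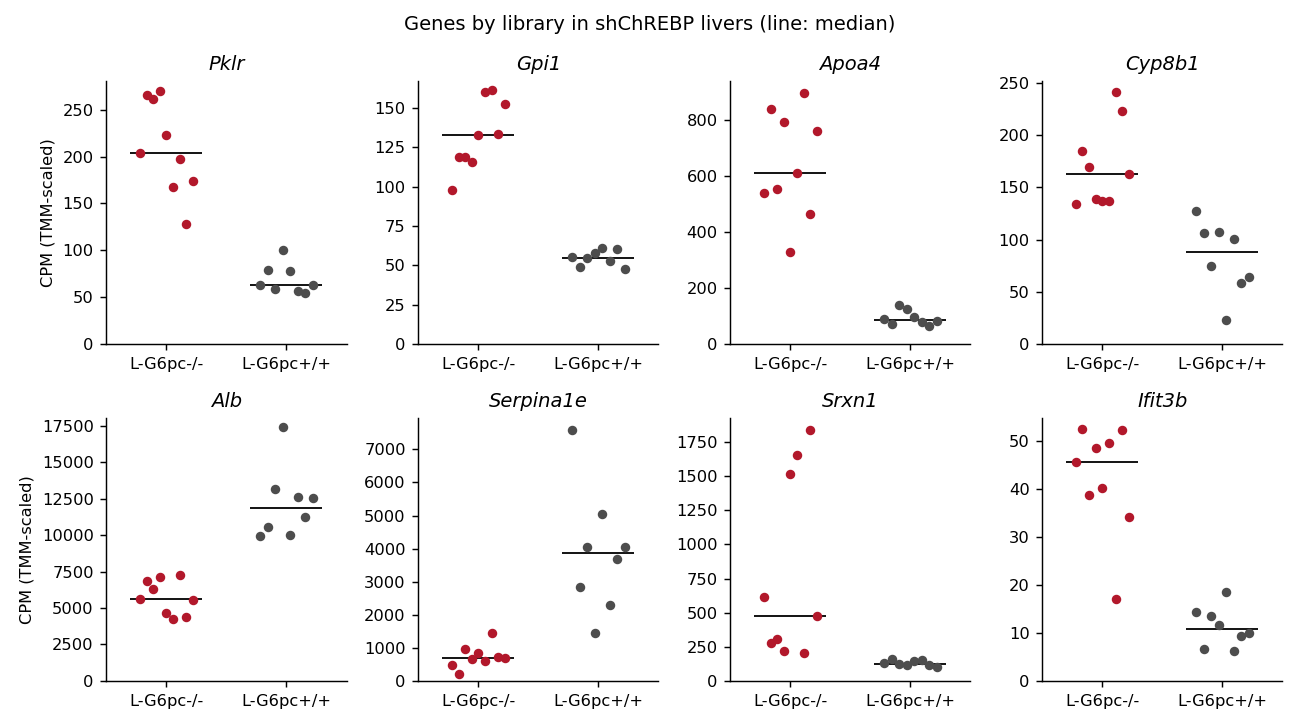
CPM of 8 genes in each shChREBP library, with L-G6pc-/- libraries (9, red) left of L-G6pc+/+ libraries (8, grey) and a line at each median. The groups do not overlap for the first 7 genes, and for Ifit3b 1 L-G6pc-/- library lies within the L-G6pc+/+ range.

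The apolipoprotein genes Apoa4 and Apoc2 were also higher in L-G6pc-/- livers. Apoa4, an apolipoprotein of triglyceride-rich particles, was at 331, 613 and 898.5 CPM in L-G6pc-/- and at 66.3, 86 and 139 CPM in L-G6pc+/+ libraries. The lowest L-G6pc-/- library, s29, was above all L-G6pc+/+ libraries, and the log2 fold change was 2.78 (SE 0.19, edgeR adjusted p = 8.1e-13). Apoc2, the activator of lipoprotein lipase, rose by 1.12 without overlap. Of 43 genes of triglyceride synthesis, lipid droplets and lipoproteins, 11 rose and 2 fell. The lower ones were Ces3a (-1.17), a lipid droplet carboxylesterase, and Dgat2 (-0.37), which makes triglyceride and did not pass without the 4 libraries set apart (edgeR adjusted p = 0.246). With shSCR 10 of the 43 were higher and none lower (median 0.20, against 0.15 with shChREBP).

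The list of fatty acid oxidation, ketogenesis and PPARα targets had 7 of 41 tested genes higher and 1 lower, beside 6.14% and 4.9% over all genes. The lower one was Ppara, the nuclear receptor that drives fatty acid oxidation, at 79.1, 119 and 174 CPM in L-G6pc-/- and at 148, 199.6 and 263 CPM in L-G6pc+/+ libraries (log2 fold change -0.75, SE 0.14, edgeR adjusted p = 0.000421). Only 2 L-G6pc-/- libraries reached the L-G6pc+/+ range. Fgf21, a hormone induced by PPARα and by stress signalling, was at 4.78, 16.8 and 29.4 CPM in L-G6pc-/- and at 0.575, 4.04 and 6.49 CPM in L-G6pc+/+ libraries (log2 fold change 2.09, SE 0.43, edgeR adjusted p = 0.00137). The mitochondrial enzymes Decr1 and Acadl rose by 0.51 and 0.45. Cholesterol synthesis and uptake had 2 of 33 genes higher, Insig2 (0.84) and Cyp51 (0.47), and 3 lower, Abca1 (-0.40, without overlap), Tm7sf2 (-0.77) and Insig1 (-0.78), close to the share of calls over all genes. The list had 1 higher gene and none lower without the 4 libraries set apart, where Cyp51, Abca1, Tm7sf2 and Insig1 had edgeR adjusted p = 0.0799, 0.0851, 0.104 and 0.111.

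Bile acid genes fell more often than they rose, 8 of 29 lower and 3 higher, with a median of -0.24 (6 lower and 1 higher without the 4 libraries set apart). Cyp27a1, which starts the alternative pathway of bile acid synthesis, was at 73.5, 96.5 and 119 CPM in L-G6pc-/- and at 128, 150 and 181 CPM in L-G6pc+/+ libraries (log2 fold change -0.66, SE 0.11, edgeR adjusted p = 0.000146). Hsd3b7 (-0.78), Cyp2c70, a hydroxylase that makes muricholic acids (-0.72), and the uptake carrier gene Slco1b2 (-0.56) also fell. Cyp8b1, the sterol 12α-hydroxylase that sets the share of cholic acid, went the other way, with 134, 162.5 and 241 CPM in L-G6pc-/- and 23.2, 87.8 and 128 CPM in L-G6pc+/+ libraries. Its groups did not overlap either (log2 fold change 1.03, SE 0.21, edgeR adjusted p = 0.000976). Nr0b2, which encodes the bile acid-induced repressor SHP, fell by 0.88 (edgeR adjusted p = 0.0331; 0.064 without s29, s30, s32 and s33). Neither Slc10a1 nor Abcb11, the main bile acid uptake and export carriers, passed the test (log2 fold changes -0.38 and -0.20, edgeR adjusted p = 0.226 and 0.173).

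RNAs of albumin and α1-antitrypsin fell. Alb was at 4277, 5627 and 7241 CPM in L-G6pc-/- and at 9907, 11865 and 17387 CPM in L-G6pc+/+ libraries, so every L-G6pc-/- library lay below every L-G6pc+/+ library (log2 fold change -1.07, SE 0.12, edgeR adjusted p = 6.63e-08). Serpina1e, an α1-antitrypsin paralogue, was at 207, 692 and 1456 CPM in L-G6pc-/- and at 1459, 3863 and 7586 CPM in L-G6pc+/+ libraries (log2 fold change -2.40, SE 0.36, edgeR adjusted p = 2.1e-05). The groups met without overlap. The major urinary protein genes Mup11 (-2.77), Mup12 (-2.19) and Mup1 (-2.25) fell, but reads of these near-identical genes, and of the Serpina1 paralogues, may be shared between copies. Mup11 and Mup1 did not pass without the 4 libraries set apart (edgeR adjusted p = 0.0529 and 0.12).

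Of 39 hepatocyte transcription factor and identity genes, 14 fell and 3 rose (median -0.26). Besides Alb and Serpina1a (-0.50), the growth hormone target Igf1 fell by 0.45, and the rises were H19, a fetal imprinted RNA, Spink1, a trypsin inhibitor, and Nr1i2, which encodes the receptor PXR. H19 was at 3.52, 6.47 and 12.4 CPM in L-G6pc-/- and at 0, 0 and 2.56 CPM in L-G6pc+/+ libraries, and all 9 L-G6pc-/- libraries were higher (log2 fold change 4.05, SE 0.59, edgeR adjusted p = 1.57e-05). Spink1 was at 3.88, 8.84 and 23.5 CPM against 0, 0.721 and 3.79 CPM in L-G6pc+/+, also without overlap (log2 fold change 3.51). The list had 5 lower and 3 higher genes of 39 without s29, s30, s32 and s33, where Serpina1a, Igf1 and Nr1i2 had edgeR adjusted p = 0.0936, 0.0639 and 0.0525.

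Hnf4a, the master regulator of hepatocyte genes, did not pass the test, at 109, 130 and 169.5 CPM in L-G6pc-/- and 112, 168 and 189 CPM in L-G6pc+/+ libraries (log2 fold change -0.26, SE 0.12, edgeR adjusted p = 0.177). Its antisense transcript Hnf4aos was lower (log2 fold change -1.35, edgeR adjusted p = 0.0194; 0.064 without s29, s30, s32 and s33) with overlapping groups. The sources used here do not give the strand setting of the counting, so reads of these partners cannot be told apart.

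Of 38 hepatokine and IGF axis genes 11 fell and 4 rose, and 5 were lower and 5 higher without the 4 libraries set apart. Lifr, the receptor for leukaemia inhibitory factor, was at 142, 232 and 394 CPM in L-G6pc-/- and at 374, 843 and 1022 CPM in L-G6pc+/+ libraries (log2 fold change -1.70, SE 0.28, edgeR adjusted p = 0.000104), with 1 L-G6pc-/- library inside the L-G6pc+/+ range. Lepr, the leptin receptor, was at 7.76, 12.8 and 44.5 CPM against 0.512, 1.73 and 4.6 CPM in L-G6pc+/+, without overlap (log2 fold change 2.96, SE 0.35, edgeR adjusted p = 3.1e-07). Igfbp4 (-0.46) and Stat5a (-0.92) fell, and Fst and Selenop rose by 1.95 and 0.33. Acute phase proteins had 5 of 32 genes lower, Saa4 (-0.95), Lbp (-0.72), Hp (-0.63), Fga (-0.45) and Apcs (-0.40), and 1 higher, Orm1 (0.53). Over all genes 4.9% were lower and 6.14% higher. The acute phase list had 3 lower and 2 higher without the 4 libraries set apart. There Fga and Apcs had edgeR adjusted p = 0.336 and 0.126, and Saa4 was at -0.63.

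Of 58 tested cytochrome P450 and related genes 13 fell and 5 rose. Cyp2c50 was at 42, 87.1 and 128 CPM in L-G6pc-/- and at 166, 199.5 and 389.5 CPM in L-G6pc+/+ libraries (log2 fold change -1.42, SE 0.21, edgeR adjusted p = 1.87e-05), and Cyp2c54 fell by 1.99. In both, all L-G6pc-/- libraries were the lower ones. Sult2a8, a hepatic sulfotransferase, fell by 2.05. Cyp2a4 was at 126, 297 and 500 CPM in L-G6pc-/- and at 15.5, 47.9 and 79.3 CPM in L-G6pc+/+ libraries, without overlap (log2 fold change 2.67, SE 0.37, edgeR adjusted p = 7.75e-06). Its neighbour Cyp2a5, a near copy whose reads may be shared, rose by 1.67 (1.10 without the 4 libraries set apart).

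Targets of NRF2, the factor that senses oxidative and electrophilic stress, were among the most often higher. Of 36 tested genes 16 rose and 1 fell (Gpx1, -0.27), with a median of 0.36. The higher ones include Pgd and Me1, already counted above in the pentose phosphate and lipogenesis lists. With shSCR 5 of the 36 were higher and none lower (median 0.16). Srxn1, sulfiredoxin, was at 204, 479 and 1842 CPM in L-G6pc-/- and at 100.6, 125 and 157 CPM in L-G6pc+/+ libraries. All 9 L-G6pc-/- libraries were higher, with s29, s30 and s32 at 1517 to 1842 CPM and s25 next at 611.5 CPM (log2 fold change 2.60, SE 0.33, edgeR adjusted p = 1.84e-06).

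The carbonyl reductase gene Cbr3 was at 3.68, 31.7 and 238 CPM in L-G6pc-/- and at 0.575, 2.64 and 4.32 CPM in L-G6pc+/+ libraries (log2 fold change 4.62, SE 0.68, edgeR adjusted p = 1.74e-05), and Gstm3, a glutathione S-transferase, at 41.9, 186 and 580.5 CPM against 16.8, 27.7 and 58.9 CPM (log2 fold change 2.97, SE 0.42, edgeR adjusted p = 1.11e-05). In both genes s29, s30 and s32 had the highest values. Cbr1 rose by 1.48 without overlap. Of 18 glutathione S-transferase genes 6 rose, Gstm2 by 0.97, Gstm1 by 1.03, Gsta2 by 1.55 and Gsta4 by 0.59 among them, and none fell, and reads of Gstm copies may be shared.

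Without s29, s30, s32 and s33 the NRF2 list had 9 higher genes of 36 with a median of 0.19, and the glutathione S-transferases 2 of 18. Srxn1, Cbr1, Cbr3 and Gstm3 were still called, with log2 fold changes of 1.33, 1.12, 2.24 and 1.5, as was Gstm2 with 0.52. Gpx1, Gstm1, Gsta2 and Gsta4 did not pass there (edgeR adjusted p = 0.0776, 0.226, 0.183 and 0.306).

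Of 26 tested mitosis genes 16 rose in L-G6pc-/- livers and none fell, with a median log2 fold change of 1.29. Cdc20, which activates the ubiquitin ligase that starts anaphase, was at 0.977, 8.98 and 30.6 CPM in L-G6pc-/- and at 0, 1.29 and 5.12 CPM in L-G6pc+/+ libraries (log2 fold change 3.08, SE 0.49, edgeR adjusted p = 5.77e-05). The lowest L-G6pc-/- library was s31 and the highest were s29, s32, s30 and s25. Cdk1, the mitotic kinase, was at 9.77, 18 and 80.8 CPM against 2.87, 9.34 and 16.8 CPM in L-G6pc+/+ (log2 fold change 1.82), and Aurka, Prc1 and Cenpf rose by 1.83, 2.59 and 1.99.

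The groups of these genes overlapped, and s13 held the highest L-G6pc+/+ value of Prc1 (9.79 CPM). The mitosis list had 4 higher genes of 25, with a median of 0.77, without s29, s30, s32 and s33. Cdk1 was then 1.02 higher, and Aurka and Cenpf did not pass (edgeR adjusted p = 0.0697 and 0.0768). S phase genes, 5 higher and 1 lower of 34 (median 0.34), had none higher and 1 lower without these libraries. No mitosis gene was called between the genotypes with shSCR (median 0.75), and for none did the difference between both effects pass its test. Not passing does not show that the effects were equal.

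Of 27 p53 targets 4 rose and 1 fell, beside 6.14% higher and 4.9% lower over all genes. Phlda3 was at 6.84, 21 and 32.4 CPM in L-G6pc-/- and at 2.9, 5.62 and 12.4 CPM in L-G6pc+/+ libraries (log2 fold change 1.65, SE 0.24, edgeR adjusted p = 1.38e-05), and Mdm2, the ubiquitin ligase that restrains p53, rose by 0.63. In both genes most L-G6pc-/- libraries, 8 and 7 of 9, exceeded all L-G6pc+/+ libraries. Sesn2 and Ddit4, which are also ATF4 targets, rose by 0.99 and 1.76, and Dcxr fell by 0.68. Sesn2 missed the threshold without the 4 libraries set apart (edgeR adjusted p = 0.0531). Ddit4 was at 792 CPM in s31 and at most 133 CPM in the other L-G6pc-/- libraries. Cdkn1a, which encodes p21, was at 35.9, 58.7 and 130 CPM in L-G6pc-/- and at 17.3, 43 and 116 CPM in L-G6pc+/+ libraries. The groups overlapped, and the difference in mean log2 CPM of 0.668 did not pass (exact test, p = 0.0896; 0.137 adjusted over 4 genes). The value of 116 CPM was that of s13, without which the difference was 0.875 (exact test, adjusted p = 0.042). Leaving out the highest L-G6pc+/+ value widens the difference by itself. Of the 17 shChREBP libraries left out in turn, s13 was the only one without which Cdkn1a passed.

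**Figure D3:**
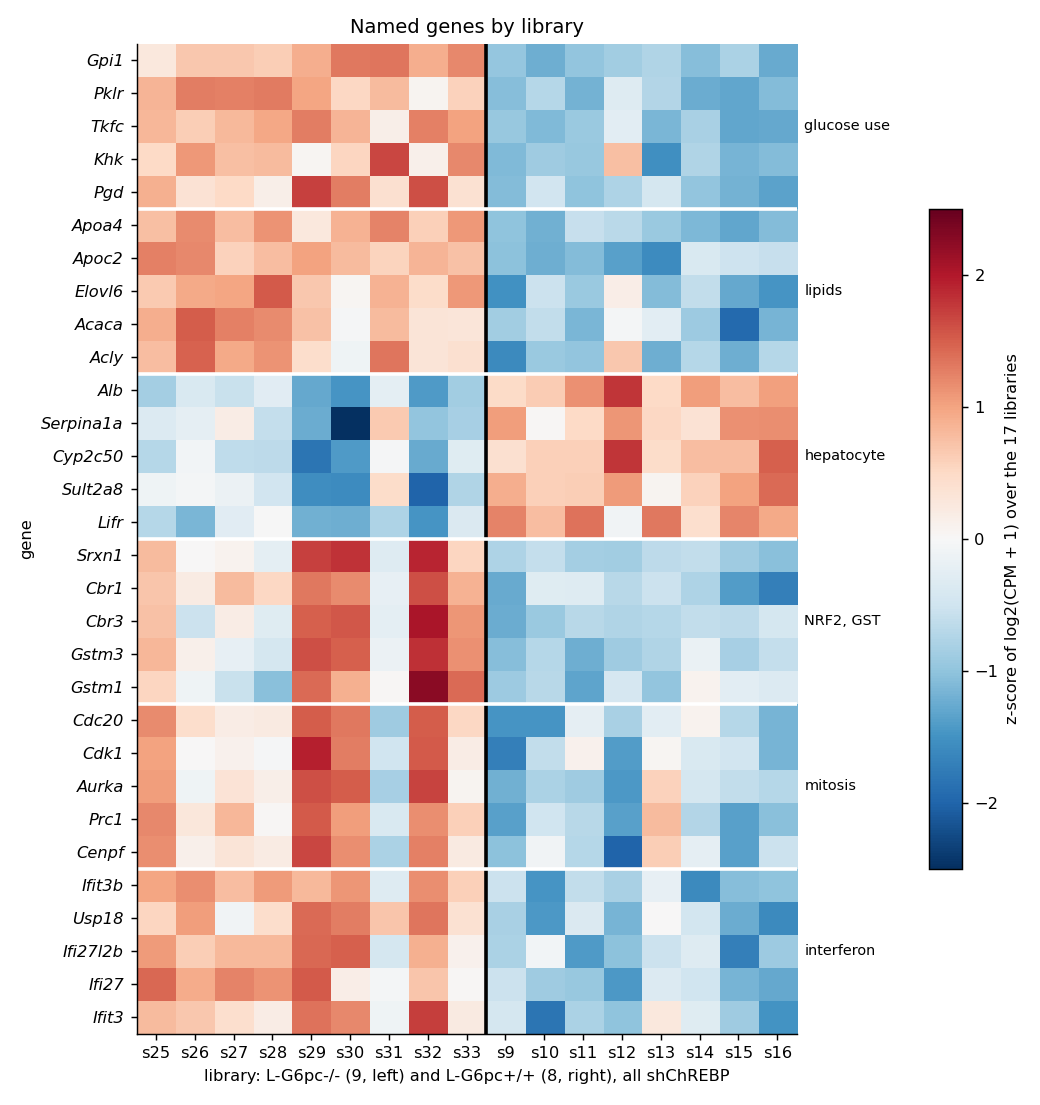
Named genes (rows) by shChREBP library (columns; 9 L-G6pc-/- libraries left of the line, 8 L-G6pc+/+ right), coloured by the z-score of log2(CPM + 1) over the 17 libraries. Genes of glucose use and lipids are higher in nearly all L-G6pc-/- libraries, whereas NRF2, glutathione S-transferase and mitosis genes are mostly highest in s29, s30 and s32.

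Of 49 tested genes of a list of interferon-stimulated and nucleic acid sensing genes 18 rose and none fell, with a median of 0.48. With shSCR 4 of the 49 were higher and none lower (median 0.29). Usp18, the protease that removes ISG15 from proteins, was at 31.7, 49.8 and 74.9 CPM in L-G6pc-/- and at 12.9, 18.8 and 33.5 CPM in L-G6pc+/+ libraries (log2 fold change 1.39, SE 0.18, edgeR adjusted p = 2.7e-06). Only s27 among the L-G6pc-/- libraries lay below the highest L-G6pc+/+ library, s13. Ifi27 was at 309, 475 and 616 CPM against 169, 211 and 273.5 CPM in L-G6pc+/+, without overlap (log2 fold change 1.08, SE 0.16, edgeR adjusted p = 2.41e-05). Ifi27l2b and Ifit3 rose by 1.92 and 1.31.

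Ifit3b, a near copy of Ifit3, was at 17.1, 45.8 and 52.6 CPM in L-G6pc-/- and at 6.14, 10.8 and 18.5 CPM in L-G6pc+/+ libraries (log2 fold change 1.92, SE 0.22, edgeR adjusted p = 1.74e-07). The lowest L-G6pc-/- library, s31, stood apart from the other 8, which were at 34.2 CPM or more. Reads of Ifit3 and Ifit3b may be shared. Without s29, s30, s32 and s33, 10 of the 49 genes were higher and none lower, with a median of 0.32, and all 5 genes with the smallest p were called.

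The promoter of Ifit3b (GRCm38.p6, chr19:34607707-34608006, plus strand) is shown because it carries interferon-stimulated response elements, matched here as the letters GAAANNGAAA on either strand, in capitals.
Ifit3b promoter: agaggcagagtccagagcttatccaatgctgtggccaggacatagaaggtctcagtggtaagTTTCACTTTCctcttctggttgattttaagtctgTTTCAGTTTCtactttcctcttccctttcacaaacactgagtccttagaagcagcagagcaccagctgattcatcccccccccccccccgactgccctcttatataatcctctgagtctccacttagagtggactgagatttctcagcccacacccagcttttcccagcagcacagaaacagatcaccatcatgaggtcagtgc
This match was found in 9 of the 13 called genes of the interferon and nucleic acid sensing list that have a promoter window (69.2%). Among all its tested genes with a window it was found in 19 of 35 (54.3%). It occurred in 298 of the 7870 tested genes with a window (3.79%) and in 1131 of all 32851 windows (3.44%).

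**Figure D4:**
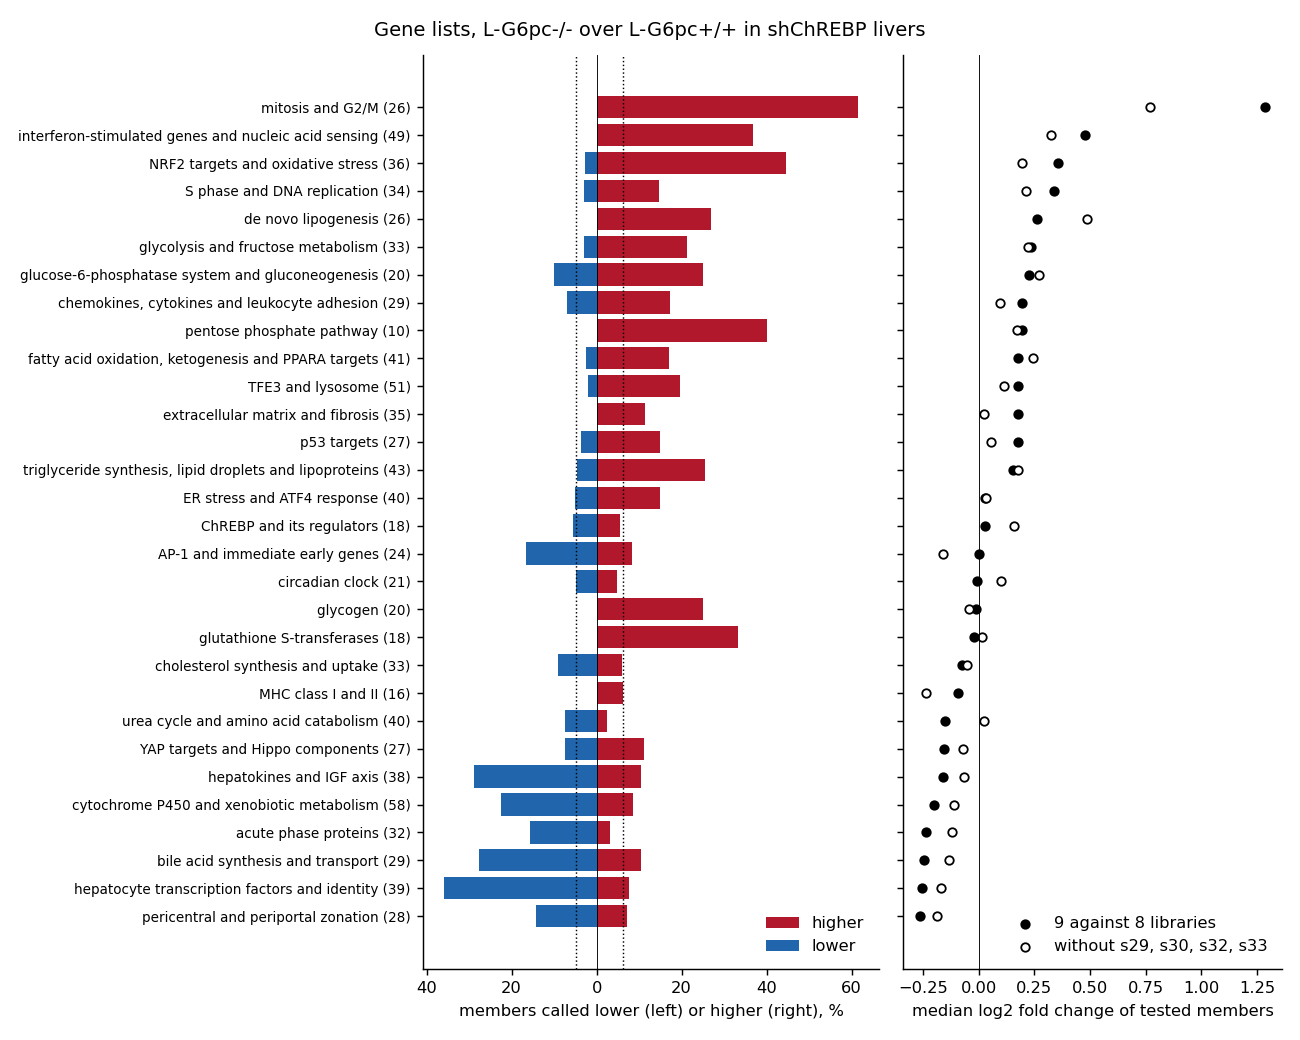
Gene lists by their median log2 fold change, L-G6pc-/- over L-G6pc+/+ in shChREBP livers, with the number of tested members in brackets. Bars give the percentage of members called higher (red) and lower (blue), dotted lines the same over all genes (6.14% and 4.9%), and points the list's median with all 17 libraries (filled) and without s29, s30, s32 and s33 (open); mitosis genes have the highest median, 1.29 and 0.77.

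Among genes of other pathways, the list of lysosomal genes and their regulators had 10 of 51 higher and 1 lower. Ctsd, the cathepsin D gene, Mtor and Cd63 rose by 0.60, 0.68 and 1.04 and Lamp2 fell by 0.31. The list had 6 higher and 2 lower without the 4 libraries set apart, where Ctsd was 0.38 higher and Cd63 did not pass (edgeR adjusted p = 0.131). The ER stress and ATF4 list had 6 of 40 higher and 2 lower, beside 6.14% and 4.9% over all genes. In it Atf5 and Nars, asparaginyl-tRNA synthetase, rose by 0.63 and 0.44. This list had 4 higher and none lower without the 4 libraries set apart.

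Of 24 AP-1 and immediate early genes 4 fell, Ier2 (-1.62), Egr1 (-1.81), Fos (-1.67) and the Krüppel-like factor gene Klf9 (-0.79), and 2 rose, Klf6 (0.74) and Mafk (1.03). There were 2 lower and 1 higher without the 4 libraries set apart, where Fos, Klf9, Klf6 and Mafk did not pass (edgeR adjusted p = 0.131, 0.111, 0.129 and 0.485). Egr1 was at 44.9, 137 and 252 CPM in L-G6pc-/- and at 62.7, 442 and 1220 CPM in L-G6pc+/+ libraries, with s9 lowest and the other L-G6pc+/+ libraries at 301 CPM or more. Of YAP targets and Hippo components 3 of 27 rose, Birc5, Lgals3 and Asap1, and 2 fell, Sav1 and Nf2. For this list and the AP-1 list, the shares over all genes were 6.14% higher and 4.9% lower. Nf2 alone of these 5 was called without s29, s30, s32 and s33. Ccn2, a YAP target, was at 19.7, 46.4 and 65 CPM in L-G6pc-/- and 10.3, 41.7 and 67 CPM in L-G6pc+/+ libraries and did not pass the test (edgeR adjusted p = 0.89).

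Chemokines and cytokines went both ways. Cxcl10 rose by 1.25 (3.42, 16.5 and 27.6 CPM in L-G6pc-/- and 2.87, 6.77 and 10.3 CPM in L-G6pc+/+ libraries; edgeR adjusted p = 0.00389) and Ccl6 by 1.13, and Cxcl13 (-2.29) and Cxcl1 (-1.73) fell. Of 29 genes of chemokines, cytokines and leukocyte adhesion 5 rose and 2 fell, beside 6.14% higher and 4.9% lower over all genes. Without s29, s30, s32 and s33 it was 1 and 1, with edgeR adjusted p = 0.331 for Ccl6 and 0.0847 for Cxcl1. Il1b did not pass (log2 fold change -0.12, edgeR adjusted p = 0.834), and Il6, Tnf, Cgas, Cdkn2a, Afp and Krt19 were too low to be tested. In the matrix list 4 of 35 genes rose, Nid1, Mmp12, Col15a1 and Col1a1, and none fell, beside 6.14% higher and 4.9% lower over all genes. Of these 4, Col15a1 alone was called without s29, s30, s32 and s33.

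Ly6d, Nr4a2, Mfsd2a and A1bg, among the largest rises, lay in no list. Ly6d, a surface antigen gene, was at 37.1, 101 and 622 CPM in L-G6pc-/- and at 1.74, 7.84 and 25.6 CPM in L-G6pc+/+ libraries, without overlap and with the highest values in s32, s30 and s29 (log2 fold change 4.61, SE 0.54, edgeR adjusted p = 2.35e-07; 2.94 without s29, s30, s32 and s33). Nr4a2, an orphan nuclear receptor gene, was at 3.38, 13.3 and 44.1 CPM against 0.541, 1.96 and 3.89 CPM in L-G6pc+/+ (log2 fold change 3.22), and the lipid transporter gene Mfsd2a at 9.83, 39.3 and 111 CPM against 0, 2.38 and 35.4 CPM (log2 fold change 2.72). A single L-G6pc+/+ library, s12, held the 35.4 CPM. A1bg rose by 2.32, with 65.8 CPM in s28 and at most 20.1 CPM in the other L-G6pc-/- libraries. Mmp12, a macrophage metalloelastase of the matrix list, had 1.35, 6.62 and 35 CPM in L-G6pc-/- and 0, 0.805 and 3.58 CPM in L-G6pc+/+ libraries (log2 fold change 3.48, edgeR adjusted p = 0.00565; 0.13 without s29, s30, s32 and s33).

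Among the other large falls, the hepatic transporter genes Slc22a28 (-1.85) and Slco1a1 (-1.73), the esterase gene Ces3b (-1.78) and the mitochondrial tRNA mt-Tf (-1.85) were lower in L-G6pc-/- livers. Of these, Slc22a28, Slco1a1 and Ces3b did not pass without the 4 libraries set apart (edgeR adjusted p = 0.0773, 0.107 and 0.0607).

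Markers of other cell types were mostly not called, as was the case for all genes tested (11% called, 6.14% higher and 4.9% lower). None of 19 Kupffer cell and macrophage, 19 endothelial and 7 red blood cell markers was called, 1 of 19 stellate cell markers was higher (Col1a1) and 1 of 8 cholangiocyte markers was higher (Cdh1). The summed macrophage markers were at 1999, 2527 and 2972 CPM in L-G6pc-/- and at 1370, 1798 and 3460 CPM in L-G6pc+/+ libraries (lowest, median, highest). The endothelial ones were at 811, 911 and 1006 CPM and at 891, 972 and 1177 CPM. Sums of markers were not tested. Of 18 hepatocyte markers 5 were lower, Alb, Serpina1a, Cyp2e1, Fga and Ahsg. The sum of all 18 was at 51042, 60027 and 78004 CPM in L-G6pc-/- and at 72813, 77697 and 88244 CPM in L-G6pc+/+ libraries. Alb alone of these 5 was lower without the 4 libraries set apart, where Pck1 was higher, the macrophage marker Adgre1 was lower and Col1a1 did not pass. In every shChREBP library the summed hepatocyte markers were at 51042 CPM or more.

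A total of 74 genes separated the 2 groups without overlap, 50 higher (0.491% of those tested) and 24 lower (0.236%) in L-G6pc-/- livers. Of these, 72 were also called, and the other two, Stag1 and Mbtps1, were lower with edgeR adjusted p = 0.0739 and 0.105.

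The genotype effect differed between shChREBP and shSCR for 8 genes (0.0786%), 6 with a positive (0.0589%) and 2 with a negative difference (0.0196%), while 1226 had an unadjusted p under 0.05. By DESeq2 there were 76 genes with such a difference, by limma-voom 4 and by limma with the deposited signal 3. On simulated counts, the edgeR test of the difference found 56% of 2-fold and 14% of 1.5-fold changes. The test of the genotype effect under shChREBP found 84% and 44% of them. A gene that did not pass the test of the difference is thus not shown to respond alike with both shRNAs. Hsd17b13, a lipid droplet protein gene, was at 696, 838.5 and 1226 CPM in shChREBP/L-G6pc-/- and at 395, 521 and 588.5 CPM in shChREBP/L-G6pc+/+ libraries, without overlap. With shSCR it was at 540.1, 679 and 919 CPM in L-G6pc-/- and at 672, 793 and 883 CPM in L-G6pc+/+ libraries, so there the groups overlapped (difference of log2 fold changes 1.02, SE 0.18, edgeR adjusted p = 0.0149). The low group was shChREBP/L-G6pc+/+.

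Srxn1 and Ifit3b, given above with shChREBP, were close between the genotypes with shSCR, at 135, 173 and 252 CPM in L-G6pc-/- against 121, 167 and 187 CPM in L-G6pc+/+ for Srxn1 and at 11.7, 15.3 and 33.7 CPM against 9.59, 14.7 and 23.1 CPM for Ifit3b. The differences between the log2 fold changes were 2.41 (SE 0.46) and 1.65 (SE 0.32), both with edgeR adjusted p = 0.0181. Cyp2a5 behaved in the same way (1.78, SE 0.37, edgeR adjusted p = 0.0365; 0.092 without s29, s30, s32 and s33).

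D10Wsu102e and Esf1 had effects of opposite sign. D10Wsu102e had a log2 fold change of 0.29 with shChREBP and -0.63 with shSCR (edgeR adjusted p = 0.0964 and 0.000918), and Esf1, a nucleolar protein gene, of 0.38 and -0.42 (edgeR adjusted p of the difference 0.0149 for D10Wsu102e and 0.0365 for Esf1). Tgfbr2, a receptor of TGF-β, showed no difference with shChREBP that passed, at 9.71, 16.9 and 22.5 CPM in L-G6pc-/- and 8.05, 14.9 and 24.4 CPM in L-G6pc+/+ libraries. With shSCR its groups did not overlap, at 16.7, 21.3 and 29.3 CPM in L-G6pc-/- and 6.34, 8.58 and 12.6 CPM in L-G6pc+/+ libraries (difference -1.25, SE 0.26, edgeR adjusted p = 0.0365). Cyp2d40 had the same pattern, 24.7, 38.1 and 88.4 CPM in L-G6pc-/- and 27.3, 43.2 and 89.2 CPM in L-G6pc+/+ with shChREBP and 85.7, 146 and 232 CPM against 39.1, 61 and 80.2 CPM with shSCR (difference -1.41, SE 0.30, edgeR adjusted p = 0.0486; 0.096 without s29, s30, s32 and s33).

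**Figure D5:**
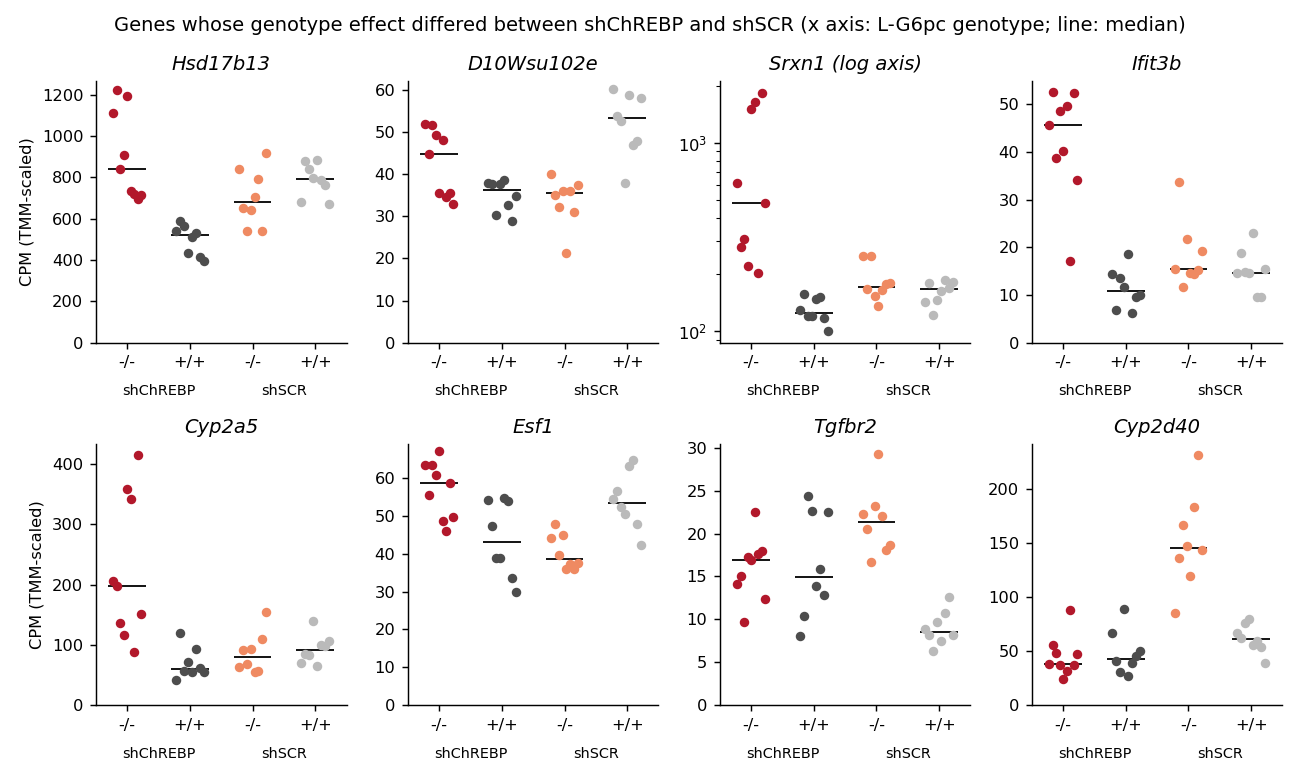
CPM of the 8 genes whose genotype effect differed between the shRNAs, by library, with both shChREBP groups left of both shSCR groups and L-G6pc-/- left of L-G6pc+/+ in each pair, a line at each median and a log axis for Srxn1. For Srxn1, Ifit3b and Cyp2a5 the shChREBP/L-G6pc-/- group alone stands high, and for Tgfbr2 and Cyp2d40 the pair with shSCR is the one that is apart.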

How the data were processed

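Liver RNA was sequenced as 3' QuantSeq libraries. According to the study, the authors used HISAT for alignment to GRCm38, SAMtools for sorting and HTSeq-count for read counts per gene (versions not given in the sources used here). They deposited raw counts, used for all main results, and a voom signal table (made with limma), in which the deposited signal is a scaled count plus an offset of 0.5 and served only for an alternative.

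Groups came from the sample titles. Of 25988 rows, those that filterByExpr (edgeR 4.0.16, R 4.3.3, minimum count 10, minimum total 15) kept were tested, with TMM factors, in one quasi-likelihood fit of all 33 libraries and 4 groups, with contrasts for the genotype effect under each shRNA and their difference. Benjamini-Hochberg adjustment ran over all 10179 genes. Mean log2 CPM (prior count 2) of 4 genes was compared by exact permutation tests (scipy 1.17.1, two-sided). The code was tested on simulated data. Total counts, 1497843 at the lowest, limit the precision of low genes.

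Named genes were those the study discusses, the 15 largest rises and falls among called genes with at least 5 CPM on average (predicted genes left out), the 5 smallest p-values of each of 30 pathway and 10 marker lists, and the genes whose effects differed. Adgre1, Dgat2, Fos, Fst, Gpt, Gpx1, Nr1i2, Orm1, Pck1, Selenop, Stag1, Mbtps1 and the promoter matches besides Pklr lie outside this rule and were chosen after their values were seen, as were other list members named without values. The comparison, its members and the lists were chosen with earlier results of these data known. Some list members are not reported here. Alternatives were DESeq2 1.42.0, limma 3.58.1 (voom, and the deposited signal), other scaling factors and filters, and libraries left out. Promoter windows and their sequences are from RefSeq (GRCm38.p6).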

Additional observations from a re-analysis of the deposited data

Results flagged for a closer look

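Of 306 sets of libraries checked (each gene named in the text, in each shChREBP group), 24 had 1 library far from the rest of its group, and chance gives about 1 in 20. In L-G6pc-/- libraries these were Ddit4 at 792 CPM in s31 (far above), and, far below the others, Ifit3b at 17.1, Phlda3 at 6.84 and Stat5a at 15.6 CPM in s31, Lgals3 at 4.53 CPM in s27, Tm7sf2 at 8.84 CPM in s30, Stag1 at 17.2 CPM in s32 and Irak1bp1 at 0.855 CPM in s33. The library s31 accounts for 4 of these 8.

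In L-G6pc+/+ libraries s12 was far above the others for Acly (232 CPM), Khk (644 CPM), Dgat2 (504 CPM), Abca1 (128 CPM) and Slc10a1 (118 CPM). In s13, Birc5 (60.8 CPM) and Prc1 (9.79 CPM) were far above and Cyp8b1 (23.2 CPM) and Dcxr (41.2 CPM) far below. In s9, Egr1 (62.7 CPM), Hnf4a (112 CPM) and Ppargc1a (12.1 CPM) were far below, as were G6pc (69.1 CPM) and Nr1i2 (105 CPM) in s16 and Asap1 (11.4 CPM) in s15, and H19 (2.56 CPM) in s14 was far above.

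The genotype effect differed between shChREBP and shSCR by its own test for 8 genes, with differences of log2 fold changes of 2.41 for Srxn1, 1.78 for Cyp2a5, 1.65 for Ifit3b, 1.02 for Hsd17b13, 0.92 for D10Wsu102e, 0.80 for Esf1, -1.25 for Tgfbr2 and -1.41 for Cyp2d40. Without s29, s30, s32 and s33, Cyp2a5 and Cyp2d40 no longer passed (edgeR adjusted p = 0.092 and 0.096).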

How the results depend on the processing

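The genotype effect under shChREBP called 827 (without s16) to 1293 genes (without s33) when each library was left out, and 910 to 1252 under the other alternatives, all within 1.5 times of 1124. With scaling by library size only, the median log2 fold change of all genes was 0.058, against -0.0137, and 73.98% of calls were higher, against 55.6%. The count under shSCR was 261 to 350 with 1 library left out. The difference between both effects gave 4 to 16 genes with 1 library left out, 76 with DESeq2, 4 with limma-voom, 3 with limma on the deposited values, 33 with library size only, 37 without s29, s30, s32 and s33, 14 without s13 and 19 without s9 and s13, against 8, and the cause was not tested.

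Of 136 called genes named in the text, 78 passed under every alternative and 45 did not pass without s29, s30, s32 and s33, which also leaves fewer samples. With 1 library left out, Pklr stayed between 1.53 and 1.66, G6pc between 0.352 and 0.623, Cdkn1a between 0.491 and 0.875 and Mlxipl between -0.0275 and 0.124. Mlxipl turned sign without s25 (-0.00486), s26 (-0.022), s27 (-0.0273), s28 (-0.0275), s31 (-0.00519), s14 (-0.00736) or s16 (-0.0179), never near the threshold. Mlxipl was 0.38 higher without s29, s30, s32 and s33, and Cdkn1a 0.875 higher without s13, both then past the threshold. The libraries left out held the lowest L-G6pc-/- values of Mlxipl and the highest L-G6pc+/+ value of Cdkn1a. Leaving them out widens each difference by itself, so neither result decides whether the gene differed. No paired analysis was possible. The study describes the L-G6pc+/+ mice as littermates, but the labels used here give no litter for a library.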
